A study of Drosophila melanogaster with 18 samples.

Results

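The nuclear genes for subunits of the mitochondrial respiratory chain and ATP synthase were followed through cultured Drosophila ovarian somatic cells (OSCs) in which Piwi, Mael or Brm had been knocked down. Members were all nuclear genes whose FlyBase symbol begins with ND-, UQCR-, COX or ATPsyn. This gave 80 genes out of 16452 nuclear genes with a symbol and 16975 features compared. Of these, 40 belonged to complex I (ND-), 9 to complex III (UQCR-), 16 to complex IV (COX) and 15 to complex V (ATPsyn). The rule used names only and no measured value.

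OSCs are a line from the somatic follicle cell lineage of the fly ovary. They were grown at 26 °C and treated with small interfering RNA for 2 days. EGFP served as the control target, and the genes targeted were piwi, mael and brm. RNA was sequenced from each of the 4 knockdowns. DNA bound by Brm, Polybromo or Osa was sequenced from EGFP and Piwi knockdown cells, together with input DNA. Piwi is the nuclear Argonaute protein of transposon silencing and Mael acts with it. Brm provides the ATPase activity of SWI/SNF chromatin remodelling, Polybromo is found in the PBAP form of the complex and Osa in the BAP form. With 1 library in every group there is no replicate behind any difference and no p-value is given. Each RNA difference compares a pair of libraries, and each ChIP level compares a ChIP library with its input. A ChIP change on Piwi knockdown compares such levels between EGFP and Piwi knockdown cells, and so carries the noise of both inputs.

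Oxidative phosphorylation passes electrons from NADH through complex I, from succinate through complex II, and on through complex III, cytochrome c and complex IV to oxygen. The proton gradient built on the way drives the ATP synthase, complex V. A few subunits of complexes I, III, IV and V are made from mitochondrial DNA, and the rest come from nuclear genes such as those described here, are made in the cytosol and are imported. Drosophila carries, beside many of these genes, a second gene of the same name with the ending L, L1 or L2 (for "like"). Many such copies in flies are known for expression in the testis.

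The RNA libraries held 4865534 reads (Brm knockdown) to 9498401 reads (Mael knockdown), and the ChIP and input libraries 475226 to 2779826. The targeted genes were lower in their own knockdown: piwi went from 81.5 to 10.95 RPKM (reads per kilobase, scaled to library size), mael from 14.5 to 4.20 and brm from 6.66 to 0.540. All 6 markers of ovarian somatic cells were found at 1 RPKM or more in at least 1 library, and their sum was 217 RPKM in the control, 243 in the Piwi, 191 in the Mael and 134 in the Brm knockdown. Sums over markers of germline, haemocytes, muscle, neurons and testis were each between 0 and 4.26 RPKM. The transposon copia held 7.96% of reads in the control and 18.1% in the Brm knockdown library, which was also the shallowest. The part of depth, copia and the marker level in the differences below was not tested.

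In control cells the set split into 58 genes with RNA and 22 with almost none. A gene was called expressed when its mean over the 4 RNA libraries was at least 5 RPKM. The expressed genes were 33 of 40 in complex I, 6 of 9 in complex III, 8 of 16 in complex IV and 11 of 15 in complex V. Their median was 294 RPKM in the EGFP knockdown, where the 5133 expressed nuclear genes had a median of 19.0. The median member stood at percentile 95.3 of those genes, and 47 of the 58 stood above percentile 90. Together they took 1.93% of all reads in the EGFP knockdown, 1.85% in the Piwi, 1.78% in the Mael and 1.39% in the Brm knockdown.

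**Figure D1:**
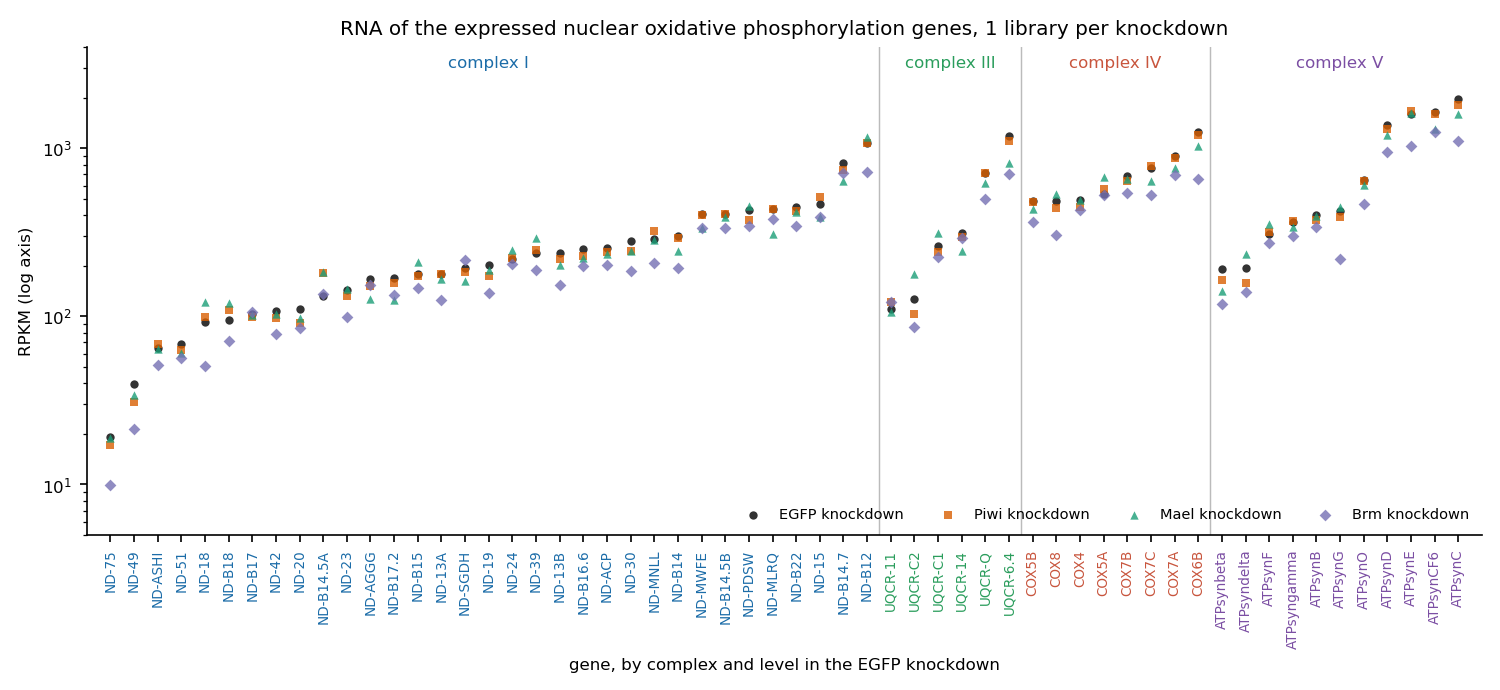
RPKM (log axis) of each of the 58 expressed genes in the 4 RNA libraries, 1 point per library, ordered by complex and by level in the EGFP knockdown. Genes of a complex spread over up to 55.6-fold (complex I), far more than most genes differ between knockdowns. The Brm knockdown is the lowest of the 4 points for 49 genes. The median of all tested features was also lower there than in the EGFP knockdown, at -0.34 in log2.

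Levels of the expressed members differed by complex. Subunits with other kinds of symbols are not in these medians and spans. Examples are cype (2337 RPKM in the EGFP knockdown) and levy (933) of complex IV, and sun (1745) and blw (337) of complex V. Median RPKM in the EGFP knockdown was 203 in complex I, 287 in complex III, 606 in complex IV and 425 in complex V. Although the subunits of a complex assemble in fixed proportions, RNA levels of the expressed members spanned 55.6-fold in complex I and 10.7-fold in complex III. The span was 10.3-fold in complex V and 2.57-fold in complex IV. RPKM is per length of transcript, so these levels can be set side by side.

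Complex I is the NADH dehydrogenase. Its 7 nuclear core subunits, which carry the flavin and the iron-sulphur clusters or surround the quinone site, had a median of 110 RPKM against 237 for the 26 other expressed subunits. The lowest gene of the whole expressed set was ND-75, the largest of the iron-sulphur subunits (X, 8248651 to 8251687), with 19.2 RPKM in the EGFP, 17.3 in the Piwi, 18.9 in the Mael and 9.97 in the Brm knockdown. It was followed by ND-49, a core subunit next to the quinone site (chromosome 4, 568296 to 571554), with 39.6, 31.0, 34.2 and 21.4 RPKM in the same order. In RPKM as deposited, the Brm library was the lowest and the EGFP library the highest for both genes. Set relative to the median feature, as below, the Mael knockdown differed from the EGFP knockdown by 0.10 for ND-75 and -0.09 for ND-49, in log2.

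The other core subunits were higher in control cells. ND-51, which binds NADH, had 68.1 RPKM, ND-20 had 110, ND-23 had 144 and ND-24 had 221. ND-30 was the highest core subunit at 281 RPKM. At the upper end of complex I stood small accessory subunits that have no redox centre. ND-B12 (2R, 21658078 to 21658777) had 1067 RPKM in the EGFP, 1069 in the Piwi, 1171 in the Mael and 720 in the Brm knockdown, ND-B14.7 had 822 in the EGFP knockdown and ND-15 had 465. ND-ASHI, another accessory subunit, was the third lowest in the complex at 64.5 RPKM.

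In complex III, which passes electrons from ubiquinol to cytochrome c, the 6 expressed genes ran from UQCR-11 with 110 RPKM and the core protein UQCR-C2 with 127, through UQCR-C1 (263), UQCR-14 (312) and UQCR-Q (713), to the small subunit UQCR-6.4 with 1183 RPKM. The 8 expressed members of complex IV, cytochrome c oxidase, were the most even, with cype and levy outside the name rule. COX5B (483 RPKM), COX8 (487) and COX4 (494) lay close together and COX6B was highest at 1241 RPKM. COX5A, COX7B, COX7C and COX7A lay between them at 531 to 899 RPKM.

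Complex V, the ATP synthase, held the 4 members with the highest levels in the control. Outside the name rule, cype of complex IV was higher than all of them at 2337 RPKM, and sun of complex V had 1745. ATPsynC encodes the subunit of the membrane ring, which is present in several copies per enzyme (3R, 31216145 to 31219630). It had 1967 RPKM in the EGFP, 1797 in the Piwi, 1607 in the Mael and 1101 in the Brm knockdown, the highest value of all members in the control. ATPsynCF6 and ATPsynD of the stalk that holds the head had 1649 and 1371 RPKM in the EGFP knockdown, and ATPsynE 1588. At the lower end, the catalytic subunit ATPsynbeta (chromosome 4, 1031484 to 1034917) had 192 RPKM and the rotor subunit ATPsyndelta 193. The catalytic subunit is also needed in several copies per enzyme, and its RNA was 10.3-fold below that of ATPsynC.

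The members are short genes. The median span on the chromosome was 1186 bases for the 58 expressed members and 2263 bases for the 5005 expressed coding genes. They had 186 transcripts in all, 24 members had a single one and ND-15 had 10. For genes with 2 listed transcripts the more abundant one held a median of 53.2% of the gene's RPKM in the control, for 3 transcripts 37.3% and for 4 transcripts 27.6%. The main exception was ND-MWFE, where 1 of 2 transcripts held 91.7%. Shares this close to an even split carry little information on which isoform was made, and values below are sums over the transcripts of a gene. Another annotated gene overlapped 43 of the 80 members, and the strand of the reads is not given in the sources used here. The members lay on each major chromosome arm in about the proportions of coding genes: 16 on 2L, 15 on 2R, 19 on 3L, 16 on 3R, 12 on X and 2 on chromosome 4.

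The 22 genes under 5 RPKM were all 21 L-named members and ND-B8. Summed over all 22, their level was 12.8 RPKM in the EGFP, 13.8 in the Piwi, 11.5 in the Mael and 8.51 in the Brm knockdown, against 26014, 25186, 23857 and 18938 RPKM for the 58 expressed genes. None of the 22 lay on X or chromosome 4, which held 12 and 2 expressed members. X holds 15.8% and chromosome 4 0.574% of all coding genes, and the shares among coding genes with little RNA were not taken.

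**Figure D2:**
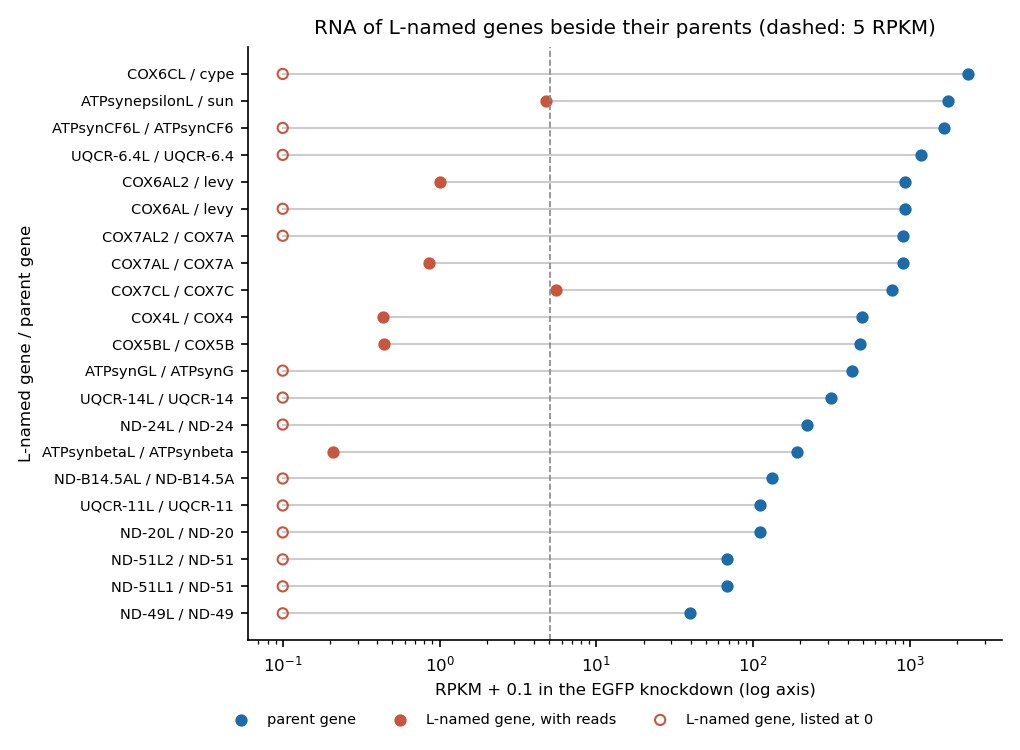
RPKM + 0.1 in the EGFP knockdown (log axis) of each L-named gene (red, open where the gene is listed at 0) and of its parent (blue), 1 pair per line. All 21 parents lie to the right of the 5 RPKM line and 20 of 21 L-named genes to its left, with COX7CL just past it at 5.43 RPKM.

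Each L-named gene was set beside the gene it is named after. Where that gene carries another symbol in FlyBase, sun was taken for ATPsynepsilonL, levy for COX6AL and COX6AL2, and cype for COX6CL. In the EGFP knockdown 14 of the 21 were listed at 0, and 12 were listed at 0 in all 4 RNA libraries. Taking 3 reads as the floor, the parents of those 14 were at least 128-fold (UQCR-11 over UQCR-11L) to at least 3317-fold higher (cype over COX6CL). In the Brm and Polybromo input of the EGFP knockdown all 21 L-named genes had reads, from 1 to 24 each. By contrast, 13 of the 21 were listed at 0 in the Osa input of the EGFP knockdown. That Osa input held fewer reads in all (925187 against 1336118) but more on the members (872 against 542). Its reads were unevenly spread, with up to 57 on a single member. Floors and intervals here cover counting error only.

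In all, 6 L-named genes reached 1 RPKM in some RNA library. ATPsynepsilonL had 4.69 RPKM (20 reads) in the EGFP, 6.18 (26 reads) in the Piwi, 3.68 (16 reads) in the Mael and 0.853 (2 reads) in the Brm knockdown, where its parent sun, the epsilon subunit of the rotor, had 1745, 1690, 1725 and 1008 RPKM. COX7CL, 282 bases from COX7C, had 5.43, 3.81, 2.31 and 4.01 RPKM in the same order, on 20, 14, 9 and 8 reads, while COX7C had 767, 780, 637 and 529 RPKM. Neither gene had enough reads to tell the libraries apart.

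COX5BL, 123 bases from COX5B, had between 0.344 and 1.55 RPKM, and COX7AL, 2626 bases from COX7A, between 0 and 1.43. COX4L had 0 to 1.57 RPKM and COX6AL2 0.507 to 1.20. COX5BL, COX7AL and COX7CL were the 3 L-named genes within 10000 bases of the parent. Of the 21, 6 lay on the chromosome arm of the parent.

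ND-B8, an accessory subunit of complex I, was the one member without L in its name that had almost no RNA. It had 1 read in the EGFP knockdown (0.242 RPKM) and was listed at 0 in the other 3 RNA libraries. It lies on 2L (4454626 to 4455207) between Secp43, with 18.6 RPKM in the EGFP knockdown, and Gs1l with 20.5, whose span overlaps it. The gene was also listed at 0 in the inputs of the Brm and Polybromo ChIP in both conditions and in the Osa input of the Piwi knockdown, and had 10 reads in the Osa input of the EGFP knockdown. Why RNA and most inputs hold so few reads of ND-B8 was not tested.

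RNA differences were taken as log2(RPKM + 1) against the EGFP knockdown, relative to the median of all features with a mean of at least 5 RPKM in the libraries compared. On the scale as deposited that median lay at -0.04 in the Piwi, -0.12 in the Mael and -0.34 in the Brm knockdown. The 3 comparisons share the EGFP library. A feature was called at 2-fold, and by a second rule at 1.5-fold. Intervals after single genes are 95% counting intervals.

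Across all 3 knockdowns no member passed 2-fold. In the Piwi comparison 59 members could be compared, and 0 passed 2-fold where 1.70% of 5361 features did. At 1.5-fold, 0 members were higher and 0 lower, where 6.30% of features were higher and 2.85% lower. The members' median was -0.03, with 25 above and 34 below the median feature, and their range was -0.30 to 0.50.

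ND-B14.5A, an accessory subunit of complex I (X, 2172526 to 2173432), was the highest. It had 131 RPKM in the EGFP, 181 in the Piwi, 184 in the Mael and 136 in the Brm knockdown. The control was the lowest of the 4 libraries on the deposited scale, which enters all 3 comparisons alike. Its relative difference was 0.50 in the Piwi knockdown (0.31 to 0.71), 0.60 in the Mael (0.41 to 0.80) and 0.38 in the Brm knockdown (0.17 to 0.67).

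Next in the Piwi comparison came ATPsynepsilonL at 0.38, whose interval on few reads ran from -0.88 to 1.77. It had 4.69 RPKM in the EGFP and 6.18 in the Piwi knockdown. ATPsynepsilonL thus passed the floor of 5 RPKM only through the library where it was high, so its rank carries no weight. It was not compared in the Mael and Brm knockdowns. Then came ND-B18 (0.24), ND-MNLL (0.18) and ND-15 (0.18), accessory subunits of complex I. The lowest was the core subunit ND-49 at -0.30 (-0.57 to -0.05), followed by the core protein UQCR-C2 at -0.25, ATPsyndelta at -0.24, the core subunit ND-20 at -0.22 and the catalytic ATPsynbeta at -0.19. Of the 7 core subunits of complex I, 6 were below the median feature, at a median of -0.11. All these differences are smaller than 1.5-fold.

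**Figure D3:**
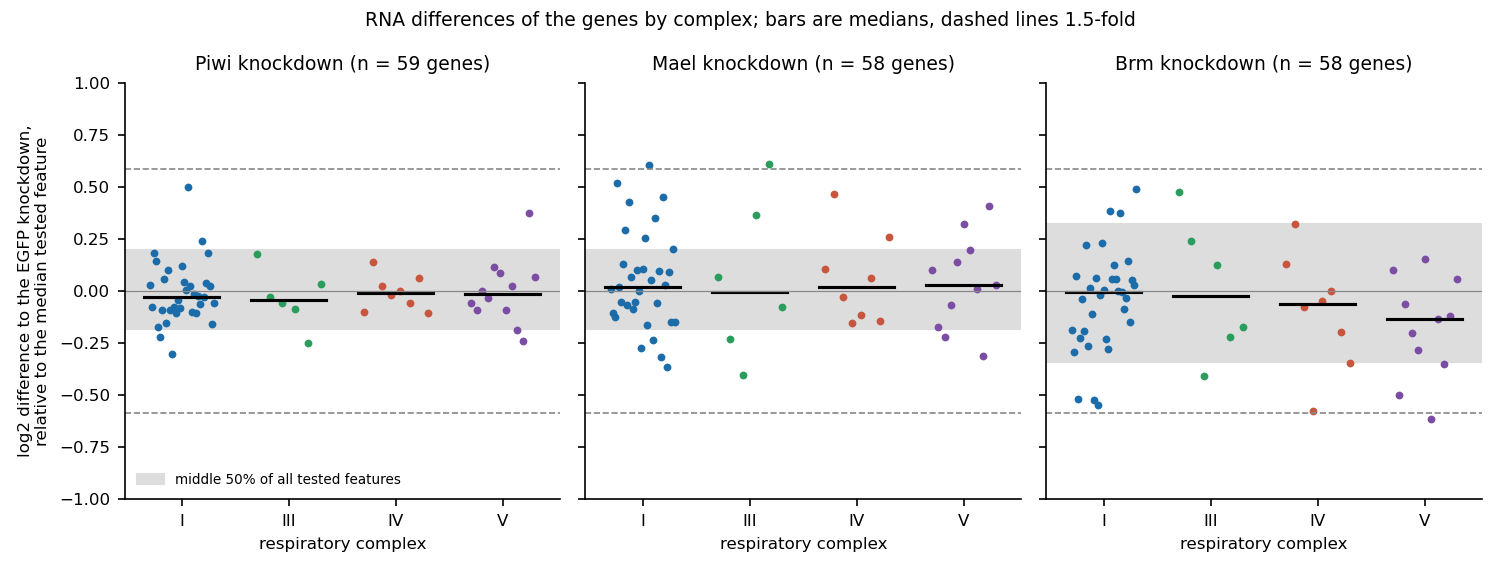
Difference of log2(RPKM + 1) to the EGFP knockdown, relative to the median tested feature, for each member by complex (1 point per gene; black bars, medians; dashed lines, 1.5-fold; grey band, the interquartile range of all tested features). The members lie around 0 in each comparison, 2 pass the upper line in the Mael and 1 passes the lower line in the Brm knockdown.

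In the Mael comparison 58 members had a median of 0.02, and 32 were above and 26 below the median feature. None passed 2-fold, where 1.02% of 5296 features did. At 1.5-fold 2 members were higher, where 4.40% of features were, and 0 were lower, where 2.11% of features were. The higher ones were UQCR-C2 and ND-B14.5A. UQCR-C2, a core protein of complex III (3L, 16584124 to 16586111), had 127 RPKM in the EGFP, 104 in the Piwi, 179 in the Mael and 86.1 in the Brm knockdown. Its relative difference in the Mael knockdown was 0.61 (0.49 to 0.74). On the scale as deposited, without the shift of the median, 0 members were 1.5-fold higher, where 131 of the 5296 features were.

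Behind them stood ND-18 (0.52), COX5A (0.47) and ND-B18 (0.45). COX5A, a subunit of complex IV, had 531, 570, 675 and 526 RPKM in the EGFP, Piwi, Mael and Brm knockdown. The lowest was UQCR-6.4, a small subunit of the same complex as UQCR-C2, at -0.41 (-0.51 to -0.32), with 1183 RPKM in the EGFP and 821 in the Mael knockdown. ND-MLRQ followed at -0.36, ND-B17.2 at -0.32, ATPsynbeta at -0.31 and ND-AGGG at -0.27. Complex III thus held both the highest and the lowest of the 58 in the Mael comparison.

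In the Brm comparison the members' median was -0.04 and 25 of 58 were above the median feature. None passed 2-fold, where 8.04% of 5086 features did. At 1.5-fold 0 were higher and 1 was lower, where 12.1% of features were higher and 13.6% lower. The lower one was ATPsynG, a subunit of the membrane part of the ATP synthase (2L, 10975522 to 10976399), with 425 RPKM in the EGFP, 388 in the Piwi, 448 in the Mael and 219 in the Brm knockdown. Its relative difference was -0.62 (-0.83 to -0.45). Without the shift of the median, 13 members were 1.5-fold lower and 0 higher, and the members' median was -0.38. On that scale 1574 of the 5086 features were 1.5-fold lower and 246 higher, and their median was -0.34.

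COX6B of complex IV was next at -0.58 (-0.68 to -0.49), with 1241, 1192, 1025 and 659 RPKM in the EGFP, Piwi, Mael and Brm knockdown. ND-75 (-0.55), ND-49 (-0.53) and ND-18 (-0.52) followed, the first 2 of which were also the lowest-expressed members. ND-18 was among the 5 highest in the Mael and the 5 lowest in the Brm comparison, on 92.2 RPKM in the EGFP, 99.2 in the Piwi, 122 in the Mael and 50.6 in the Brm knockdown. The core subunits of complex I had a median of -0.19, with 5 of 7 below the median feature, and complex V a median of -0.13, with 8 of 11 below it.

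At the upper end of the Brm comparison were ND-SGDH of complex I at 0.49 (0.30 to 0.66) and UQCR-11 at 0.47 (0.16 to 0.79). ND-SGDH had 195 RPKM in the EGFP and 218 in the Brm knockdown, and UQCR-11 had 110 and 122. Both were higher in the Brm library on the deposited scale too. ND-B14.5A (0.38), ND-B17 (0.37) and COX5A (0.32) came next.

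On the deposited scale the Brm library gave the lowest value for 49 of the 58 expressed members and the EGFP library the highest for 32. On that scale the median tested feature was also below the EGFP library, at -0.04 (Piwi), -0.12 (Mael) and -0.34 (Brm). After each library was set relative to its median feature, the Brm library was lowest for 26 and the EGFP library highest for 12. The same counts over all features are not given here. Differences among members were narrower than among all features in each comparison. The interquartile range was 0.14 against 0.38 in the Piwi, 0.31 against 0.38 in the Mael and 0.29 against 0.67 in the Brm comparison. Highly expressed features have less counting error, so the 50 members of at least 100 RPKM were set beside all 624 features of at least 100 RPKM, a choice made after the values were seen. The interquartile ranges were then 0.13 against 0.20 in the Piwi, 0.33 against 0.34 in the Mael and 0.33 against 0.59 in the Brm knockdown.

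Oxidative phosphorylation genes with other kinds of symbols were listed apart, 15 in all, and 12 of them could be compared. None passed 2-fold in any of the 3 comparisons. Their medians were -0.06 in the Piwi, 0.08 in the Mael and -0.17 in the Brm knockdown. The 4 subunits of succinate dehydrogenase, complex II, lay between -0.36 (SdhD, Piwi knockdown) and 0.46 (SdhC, Brm knockdown). Beyond 1.5-fold, in the Brm comparison, was blw, the alpha subunit that forms the catalytic head of the ATP synthase with ATPsynbeta. It had 337 RPKM in the EGFP, 286 in the Piwi, 222 in the Mael and 142 in the Brm knockdown, and its relative differences in the 3 knockdowns were -0.19, -0.48 and -0.90. For its partner ATPsynbeta the same differences were -0.19, -0.31 and -0.35. Cyt-c-p, the cytochrome c of somatic cells, had 817, 822, 818 and 463 RPKM, while Cyt-c-d and the copies SdhAL and SdhBL were listed at 0 in all 4 libraries.

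ChIP and input reads were summed over the transcripts of each gene, so they describe DNA under exons and give no separate value for the promoter. The 80 members had few such reads, with medians of 2 to 15.5 per gene and library. Enrichment was log2 of ChIP over input relative to the median of 8488 features with enough input. Few values of a single gene can be told from 0, so reads were also pooled over the members, a choice made after the values were seen.

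Brm was higher over expressed members than over the median feature. In control cells 34 members had enough input, their median was 0.54, and 16 were called at 1.5-fold above the median feature, where 13.2% of features were. All 16 were expressed genes, as were 30 of the 34. Pooled over the 58 expressed members, Brm ChIP (1364 reads) over input (402 reads) was 0.68 on the log2 scale relative to all nuclear genes (0.51 to 0.84). Pooled over the 22 genes under 5 RPKM it was -0.29 (-0.59 to 0.01), from 243 ChIP and 140 input reads. The expressed members were thus higher by 0.97 (0.63 to 1.31), an interval of counting error only.

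Other highly expressed and short genes, grouped after the values were seen, had like or higher levels. Expressed coding genes as a whole had 0.22 (0.21 to 0.23), those of at most 2000 bases 0.39 and those of at least 100 RPKM 0.60. The 394 genes that were both short and of at least 100 RPKM had 0.85 (0.79 to 0.91). The level over the members was not above that of these genes, some of which are members. By complex, the pooled level was 0.57 for expressed genes of complex I, 0.99 for complex III, 0.78 for complex IV and 0.74 for complex V. The lower bounds of the intervals were 0.35, 0.48, 0.23 and 0.42, and all 4 intervals overlap.

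**Figure D4:**
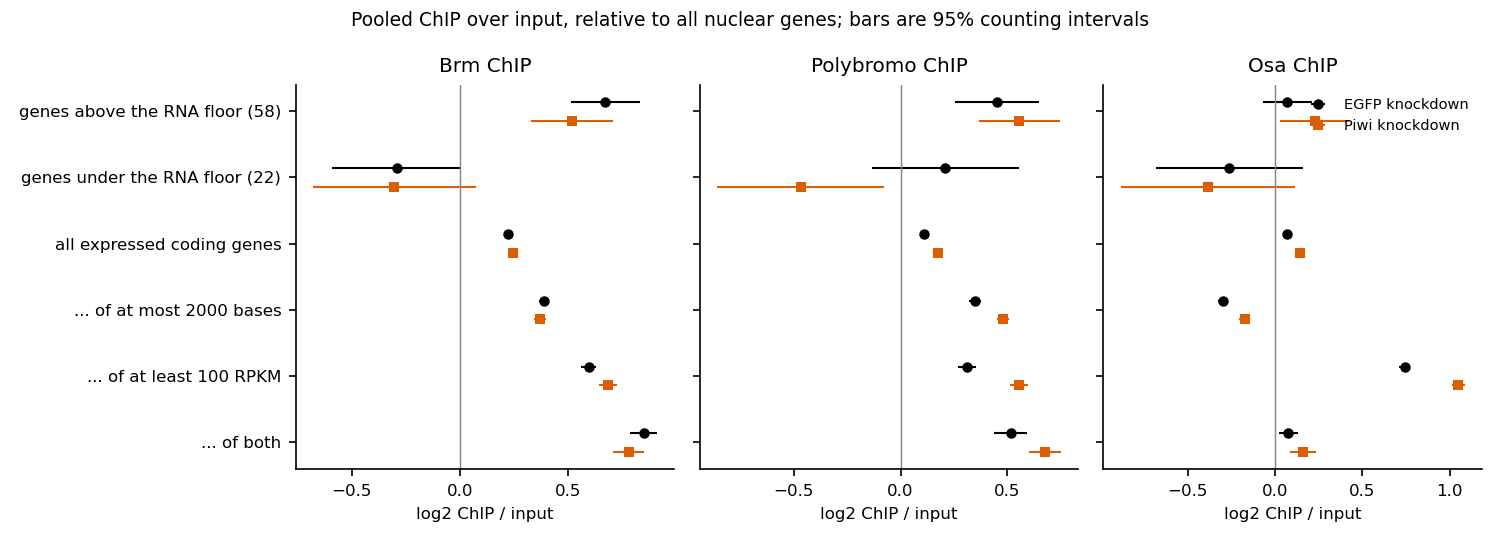
Pooled log2 ChIP over input relative to all nuclear genes, for Brm, Polybromo and Osa in the EGFP (black) and Piwi (orange) knockdown, with 95% counting intervals. In the Brm panel the genes above the RNA floor are at 0.68 and those under it at -0.29 in the control, and short genes of at least 100 RPKM are at 0.85.

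Among the 34 members with enough input, the highest were ND-AGGG (1.25, from 24 ChIP and 6 input reads), ATPsyngamma, the rotor shaft of the ATP synthase (1.22, from 49 and 10 reads), and ATPsynG (1.17, from 27 and 6 reads). COX6B was lowest at -1.07 on 3 ChIP and 6 input reads, ahead of UQCR-14L at -0.93 and ND-51L1 at -0.49. Half-widths of the counting intervals of these 6 genes ran from 0.80 (ND-51L1) to 2.00 (COX6B), and only that of ATPsyngamma, 0.98, was smaller than the value itself. Below the input filter several members were higher than ND-AGGG, and those given here were named after their values were seen. The highest was ND-18 (2.36, from 15 ChIP and 0 input reads). UQCR-Q (2.15, from 49 ChIP and 5 input reads), COX7AL2 (2.09, from 38 and 5 reads) and COX5B (1.95, from 15 and 1) came next.

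For Polybromo the same input was used. Its median over 34 members was 0.17, and 8 were called at 1.5-fold, where 11.5% of features were. Pooled over expressed members it was 0.45 (0.26 to 0.65), and over the 22 other members 0.21 (-0.14 to 0.56), a difference of 0.24 with an interval of -0.16 to 0.64. Short genes of at least 100 RPKM had 0.52 (0.44 to 0.59). Of the 34, ATPsynG (1.25), COX8 (1.24) and ND-B18 (1.02) were highest, on 10, 7 and 14 ChIP reads, each with an interval that includes 0. ND-B14.5A (-1.25), COX7C (-1.06) and ND-51L1 (-0.56) were lowest, on 1, 2 and 9 reads.

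Osa had inputs of its own, in which 25 of 80 members had no read in the EGFP and 29 in the Piwi knockdown. The median over 43 members was -0.11, and 16 were called at 1.5-fold, where 31.3% of features were. Pooled over expressed members Osa was at 0.07 (-0.07 to 0.21) and over the others at -0.26 (-0.68 to 0.16). By complex, the pooled control value was 0.41 (0.22 to 0.60) for expressed genes of complex I and 0.01 (-0.42 to 0.45) for complex IV. It was -0.42 (-0.73 to -0.11) for complex V and -0.55 (-0.95 to -0.14) for complex III. These intervals cover counting error only and not the uneven input, so they do not settle whether the complexes differ. In complex I, 9 of the 33 expressed genes had no control input read, among them ND-SGDH with 58 ChIP reads. In the Piwi knockdown complex I was at 0.06 (-0.20 to 0.33), complex III at 0.71 (0.09 to 1.32), complex IV at 1.60 (0.59 to 2.61, on 9 input reads) and complex V at 0.09 (-0.28 to 0.47), a different order. Among the 43, ATPsynG (2.45), ND-B14.5A (2.20) and ND-B14 (1.89) were highest on 17 to 20 ChIP reads. UQCR-14L was the lowest of the 43, with 0 ChIP and 14 input reads, before ATPsynD and ATPsyndelta with 3 and 6 ChIP reads.

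On Piwi knockdown the pooled levels over expressed members differed from the control by less than their counting intervals. The difference was -0.15 for Brm (-0.40 to 0.09), 0.10 for Polybromo (-0.17 to 0.38) and 0.16 for Osa (-0.09 to 0.40). Pooled over the 22 members with almost no RNA, Polybromo changed by -0.68 (-1.20 to -0.16), on 127 ChIP reads before and 91 after knockdown, the only one of these 6 intervals that does not include 0. Brm differed there by -0.01 (-0.49 to 0.47) and Osa by -0.12 (-0.78 to 0.53).

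Gene by gene, 6 of 28 members passed a 2-fold change in Brm, where 14.6% of 8488 features did, 8 of 28 in Polybromo, where 17.9% did, and 28 of 46 in Osa, where 56.0% did. The Brm change was lowest for ATPsynGL (-2.03), ND-24L (-1.75) and ND-42 (-1.40), and highest for ATPsynC (0.81), ND-49 (0.95) and COX7AL (2.20). For all 6 the half-width of the counting interval, 1.31 to 3.59, was larger than the change. For Polybromo, ATPsynGL had 2 control ChIP reads and 0 after Piwi knockdown, ND-42 (-1.81) and COX5A (-1.24) were the next lowest and ATPsynC (1.07), ND-MLRQ (1.12) and ND-49 (1.25) the highest, and the shared inputs enter both factors alike. ND-42 had 12 input reads in the EGFP and 22 in the Piwi knockdown, ATPsynC 20 and 9, and ND-49 18 and 6. The largest Osa changes belonged to genes with 0 or 1 read in an input or ChIP library, such as ATPsynCF6 with 0 and 14 input reads and ATPsyndelta with 21 and 1.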

How the data were processed

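The deposited values are RPKM, which the authors computed per transcript or transposon. The submitters' processing notes name Bowtie2 2.2.4 and the dm6 build. How reads were counted, and how those matching several places were assigned, is not given in the sources used here. RNA was total RNA prepared with a TruSeq kit, and ChIP libraries were made from formaldehyde-crosslinked chromatin with a ThruPLEX kit, per the labels' protocols. Of the RNA columns, 4 matched no listed sample and were not used, and the 4 ovary libraries were not analysed here.

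RefSeq's gene table of assembly Release 6 gave a FlyBase symbol to 34925 of 35329 transcripts, after removal of copy suffixes, and RPKM were summed per gene. Coordinates are of that build. Transposon names of other species (52) were left out. Library totals and feature lengths that turn RPKM into whole reads were found from the values. Each of the 381157 nonzero values lay within 0.001 of a whole number of reads, which follows in part from how lengths were chosen, and the listed features held 99.999% of the RNA reads and 29.7% to 38.7% of the ChIP and input reads.

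RNA was compared as log2(RPKM + 1) among features with a mean of at least 5 RPKM, relative to their median. For RNA, the 95% interval of a ratio is the Clopper-Pearson one over fragments, taken as 2 reads each because 62.9% of features had even read numbers in the EGFP library, and it uses reads summed over transcripts. ChIP enrichment was log2 of ChIP over input with the 5th percentile of input values above 0 added to both, for features with at least the median input. For ChIP it is a normal approximation on the log ratio of reads. With 1 library per group no test was run.

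Named genes are, per complex, the 3 highest and 3 lowest expressed, per RNA comparison the 5 highest and 5 lowest, per ChIP the 3 highest and 3 lowest, the core subunits of complex I, and L-named genes of at least 1 RPKM; ND-B8 and others that fill in an order were named after their values were seen. The members and lists were chosen with earlier results of these data known. The recovery of library totals and feature lengths and the RNA fold calls were tested on simulated data. The ChIP steps and the intervals were not. Python 3.11.15, NumPy 2.4.6, pandas 2.3.3, SciPy 1.17.1 and Matplotlib 3.10.9 were used. Alternatives were the pseudocount, the floor, the centring, the transcript used and, for ChIP, the input. Promoter and protein sequences were not used here.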

Additional observations from a re-analysis of the deposited data

How the results depend on the processing

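Of 145 repeats of the summary results under another choice, 110 were graded as the same, 23 as stronger, 10 as weaker and 2 as moved. Values near 0 could change sign. The members' median in the Mael comparison was 0.02, and -0.10 on the deposited scale. COX6B in the Piwi comparison was at -0.02, and at 0.11 with the most abundant transcript, which was still graded as the same. No paired analysis was possible because each group held 1 library and the labels carry no replicate numbers.

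Counts of members past 1.5-fold in RNA moved by few genes. With no floor they were 2 higher and 1 lower in the Piwi, 1 lower in the Mael, and 2 higher and 4 lower in the Brm comparison, and 1 member each passed 2-fold in the Mael and Brm comparisons. With a floor of 1 RPKM there was 1 lower in the Mael, and 1 higher, 2 lower and 1 past 2-fold in the Brm comparison. The 2 higher genes of the Mael comparison became 0 with a pseudocount of 5 and on the deposited scale. The 1 lower gene of the Brm comparison became 2 with a pseudocount of 0.1 or 5, with the most abundant transcript or with the mean over transcripts. It became 13 on the deposited scale, where the members' median was -0.38 and 1574 of 5086 features were lower. For choices other than the deposited scale, shares over all features are not given here. The median level was 147 RPKM when only the most abundant transcript was taken.

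ChIP counts moved more. For Brm enrichment, 16 members became 34 with no filter on input, 9 with 1 transcript per gene and 6 with the Osa input. For Polybromo, 8 became 31 with no filter, and 5 with the median of input as pseudocount or with the Osa input. For Osa, 16 became 5 with that pseudocount and 3 on the deposited scale. Members with a 2-fold Brm change went from 6 to 22 with no filter and 25 with the Osa input. For Polybromo 8 became 28 in both cases and 2 with the larger pseudocount. For Osa 28 became 49 with no filter and 16 with the other input. With few reads per member, the cause of single shifts was not tested, and dropping the filter admits more genes by construction. Shares over all features and the number of members kept under each of these choices are not given here. The counts therefore show only how far the calls depend on the choice.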

Other observations

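Genes of the tricarboxylic acid cycle and pyruvate dehydrogenase, which feed electrons to the chain, were listed beside the members and 13 could be compared. Their median was -0.14 in the Piwi, -0.18 in the Mael and -0.33 in the Brm knockdown, with 11 of 13 below the median feature in each of the 3 comparisons, which share the EGFP library. In the Brm comparison kdn, the citrate synthase, was lower past 2-fold (-1.01), from 25.2 to 9.30 RPKM. mAcon1, the aconitase (-0.90), Pdha of pyruvate dehydrogenase (-0.87) and ScsbetaG of succinyl-CoA synthetase (-0.65) were lower past 1.5-fold. Fum1, the fumarase and the most abundant of the 13 in the control (333 RPKM), differed by -0.25 and Idh3a, a subunit of isocitrate dehydrogenase, by 0.02.

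Of 9 genes for assembly factors and protein import, all of which could be compared, 1 passed 1.5-fold in any comparison. Surf1, an assembly factor of cytochrome c oxidase, had 19.5 RPKM in the EGFP and 32.7 in the Mael knockdown, a difference of 0.84. Their median in the Brm comparison was 0.33, while the members' was -0.04. Among 8 regulators, 5 could be compared. Myc had 5.38 RPKM in the EGFP and 11.97 in the Brm knockdown, a difference of 1.36. TFAM, which packages mitochondrial DNA, had 90.7 and 58.7 RPKM, a difference of -0.28, and srl, the fly relative of PGC-1, 10.6 and 7.01 RPKM, a difference of -0.20.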
